A study of Mus musculus with 24 samples.

Results

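The metals manganese and zinc enter and leave liver cells through dedicated carriers, and 9 genes of this system were followed: the exporters Slc30a10 and Slc30a1, the importers Slc39a14, Slc39a8, Slc39a4 and Slc11a2, the zinc-sensing transcription factor Mtf1, and the metallothioneins Mt1 and Mt2. They were taken by symbol from 2 tables of raw read counts that each list 46093 gene symbols, and all 9 were found in both tables. Slc30a10 had been selected on measured values, namely its low level in Cyp2b-null livers of the female table on chow, and the other 8 were joined to it by function. The difference that selected Slc30a10 is therefore described without using its p-value as support.

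Livers of C57BL/6 mice of either sex were sequenced in 24 libraries, 3 for each of 8 groups. The genotypes were Cyp2b-null, a line made to lack the cytochrome P450 genes Cyp2b9, Cyp2b10 and Cyp2b13 in all cells, and wild type (WT). The diets were a high-fat diet (HFD, 60% fat) and normal chow (ND), each given for 10 weeks. The groups of each sex were thus Cyp2b-null on HFD, WT on HFD, Cyp2b-null on ND and WT on ND; the sources used here do not give the ages of the mice. The series set out to learn what Cyp2b enzymes do in the liver during diet-induced obesity.

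In background terms, Slc30a10 is a cell-surface exporter that moves manganese out of hepatocytes into bile, and people and mice without it accumulate manganese. Slc39a14 brings manganese and zinc from blood into hepatocytes and Slc39a8 recovers manganese from bile, so the level of the metal depends on uptake and export together. Mtf1 is activated by zinc and binds metal response elements ahead of Mt1, Mt2 and Slc30a1. Metallothioneins are small cysteine-rich proteins that bind zinc and copper, and their genes also respond to glucocorticoids and to inflammation.

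The sequences ahead of Slc30a10, Mt2 and Mt1 are shown because the results turn on these genes and because Mtf1 acts through short elements near gene starts. RefSeq windows on GRCm38.p6 were held for 6 of the 9 genes. The 250 bases before the annotated start were searched on both strands for TGCACNC and TGCGCNC, which together spell the core of the metal response element. Capitals mark a match on either strand, each sequence runs 5′ to 3′ on the gene's own strand, and all 3 genes lie on the forward strand.
Slc30a10, chr1:185454598-185454847: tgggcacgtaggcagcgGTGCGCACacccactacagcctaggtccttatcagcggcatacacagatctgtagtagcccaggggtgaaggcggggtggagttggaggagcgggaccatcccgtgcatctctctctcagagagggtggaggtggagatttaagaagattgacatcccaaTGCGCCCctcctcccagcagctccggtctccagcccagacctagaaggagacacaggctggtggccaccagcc
Mt2, chr8:94172368-94172617: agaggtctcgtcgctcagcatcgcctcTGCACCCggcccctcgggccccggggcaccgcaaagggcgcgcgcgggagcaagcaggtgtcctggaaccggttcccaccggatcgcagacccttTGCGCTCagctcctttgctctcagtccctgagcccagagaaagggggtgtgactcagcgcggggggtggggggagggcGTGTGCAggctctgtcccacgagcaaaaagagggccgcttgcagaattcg
Mt1, chr8:94178839-94179088: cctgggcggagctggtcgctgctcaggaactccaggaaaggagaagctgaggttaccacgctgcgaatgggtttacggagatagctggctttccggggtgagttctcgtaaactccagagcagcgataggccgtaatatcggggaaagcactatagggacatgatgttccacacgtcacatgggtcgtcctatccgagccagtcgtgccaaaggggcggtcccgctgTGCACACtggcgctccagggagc
The Slc30a10 window held 3 matches, of which a pair on opposite strands overlap each other in the first capitals. The Mt2 window held 3 matches and the Mt1 window 1. Among 32851 windows of the same length, 21.4% held at least 1 match and 1.26% held at least 3. Of the other genes with a window, Slc30a1 had 1 match and Mtf1 had 0, and of the 2 windows of Slc39a8 the second had 1 match and the first had 0. A match describes letters only and is not a binding site. The annotated start of Mt1 used here may lie ahead of the promoter from which most Mt1 RNA begins, so elements further downstream are outside this window.

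Library totals were 2.01 M to 2.66 M counts in females and 8.28 M to 20.2 M in males. Levels are counts scaled to the library total (CPM) and log2 differences are given ± SE with intervals at 95%. Per the labels, female and male RNA differed in extraction and library kit, and a level set across the tables carries both, which cannot be told apart. Groups followed the sample titles, because 6 female libraries carry a genotype characteristic that differs from their title. Female counts of the deleted genes followed the titles, with Cyp2b13 at 0 counts in all 6 Cyp2b-null libraries against 565 to 1138 in the 6 WT libraries. In males Cyp2b13 had 7 to 89 counts in the libraries labelled Cyp2b-null and 23 to 85 in WT. On ND male Cyp2b10 had 4 to 15 counts in labelled null against 30 to 97 in WT, while Cyp2b9 had 24 to 59 counts in labelled null against 1 to 4 in WT, which goes against the label. On HFD both genes overlapped between the male groups. Cyp2b9 there was 1.83 to 7.57 CPM in labelled null against 4.67 to 36.1 CPM in WT, a log2 difference of -2.58 ± 0.71. On ND labelled-null Cyp2b9 was 1.56 to 3.86 CPM. Female Cyp2b-null libraries held up to 6.87 CPM of Cyp2b9 and of Cyp2b10. These genes do not bear out the male labels as a whole, and the male groups are called labelled null. Male labelled-null ND library 1 stood apart, with mitochondrial transcripts at 32.0% of its counts, against at most 7.76% in the other male libraries. In females the first principal component separated 5 libraries from 7 in a way that matched neither genotype nor diet. Hepatocyte markers such as albumin were abundant in every library and summed to between 44843 and 154932 CPM. Of the 9 genes, 8 passed the filter on low counts in each table, and Slc30a1 did not.

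Slc30a10, on chromosome 1 from 185454848 to 185468762 on the forward strand (GENCODE M21, GRCm38), was lower in Cyp2b-null than in WT female livers on both diets. On HFD its level was 17.2, 17.6 and 10.9 CPM in the 3 Cyp2b-null libraries, against 24.7, 38.7 and 22.7 CPM in the 3 WT libraries. On ND, the comparison that selected it, its level was 19.5, 20.7 and 21.4 CPM in Cyp2b-null, against 69.9, 52.4 and 47.9 CPM in WT. Every Cyp2b-null library lay below every WT library of its diet, and the lowest level in Cyp2b-null on HFD rested on 29 counts and the highest, in WT on ND, on 151 counts. In bulk liver, fewer cells that express the gene and less RNA per cell cannot be told apart. The gene overlaps the opposite-strand gene Gm2061, and whether reads were counted by strand is not given in the sources used here. Slc39a8, Slc30a1, Slc11a2, Mtf1 and Mt2 also each overlap 1 annotated gene on the opposite strand.

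On HFD the female difference of Slc30a10 was -0.92 ± 0.27 (Cyp2b-null minus WT, interval -1.48 to -0.35), which is 15.2 ± 3.74 CPM against 28.7 ± 8.74 CPM (SD, n = 3 each). Its edgeR unadjusted p was 0.00358, but the adjusted p over 11830 genes was 1, so the difference did not pass the test. That fit takes its spread from all 12 female libraries, among them the ND libraries that selected the gene. In a fit of the 2 HFD groups alone the edgeR unadjusted p was 0.0108 (adjusted p = 0.999). On ND the same difference was -1.46 ± 0.26, with 20.5 ± 0.952 CPM in Cyp2b-null and 56.7 ± 11.6 CPM in WT (SD, n = 3 each). Without WT ND library 1, which had the highest level and 13.96% mitochondrial counts, the ND difference was -1.28. Adding a term for the 2 sides of the first principal component gave -1.51, an alternative chosen after seeing the data. Without WT HFD library 2, the highest of its group, the HFD difference was -0.64.

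High-fat feeding went with lower Slc30a10 in WT females. The WT libraries had 24.7, 38.7 and 22.7 CPM on HFD, against 69.9, 52.4 and 47.9 CPM on ND, and the groups did not overlap. The difference was -0.98 ± 0.25 (HFD minus ND, interval -1.52 to -0.45, edgeR adjusted p = 0.583). In Cyp2b-null females it was -0.44 ± 0.27 (interval -1.01 to 0.14, edgeR adjusted p = 0.963), again without overlap of the 2 diets. These comparisons share the ND libraries with the one that selected the gene, WT ND in the first and Cyp2b-null ND in the second, and are not independent of it. The genotype by diet interaction was 0.55 ± 0.37, and since it subtracts the ND difference that selected the gene it is given as a description. From low to high, the female groups stood in the order Cyp2b-null HFD, Cyp2b-null ND, WT HFD, WT ND, and no 2 neighbours in that order overlapped.

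**Figure D1:**
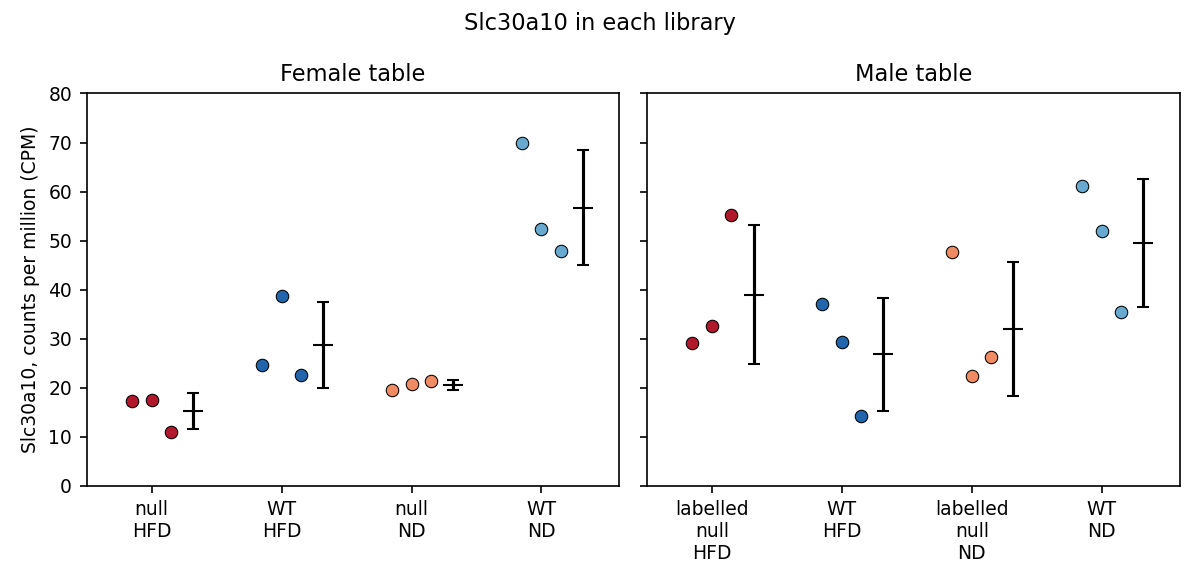
Slc30a10 level in CPM (y axis) in each library (points), by genotype and diet (x axis), for the female table (left) and the male table (right); the bars give the mean ± SD of 3 libraries. In females the Cyp2b-null libraries lie below the WT libraries of the same diet, from 10.9 to 21.4 CPM against 22.7 to 69.9 CPM, while the male groups overlap in all comparisons.

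In males the Slc30a10 groups overlapped in all comparisons. On HFD its level was 29.2, 32.5 and 55.2 CPM in the labelled-null libraries, against 37.0, 29.3 and 14.3 CPM in WT. On ND it was 47.6, 22.3 and 26.2 CPM in the labelled-null libraries, against 61.1, 52.0 and 35.4 CPM in WT. The groups overlapped on both diets, and the highest labelled-null ND value belonged to library 1, the one that stood apart. The labelled null minus WT difference was 0.54 ± 0.40 on HFD (edgeR adjusted p = 1) and -0.63 ± 0.40 on ND (edgeR adjusted p = 0.393), and the ND difference was -1.03 (adjusted p = 0.216) without labelled-null ND library 1. The difference between HFD and ND was 0.29 ± 0.40 in the labelled-null group and -0.88 ± 0.40 in WT (edgeR adjusted p = 0.745 and 0.76). Set by replicate number, each WT HFD library was below the WT ND library of its number, with 37.0 against 61.1, 29.3 against 52.0 and 14.3 against 35.4 CPM. Pairing by number was assumed from the same counts, so this is a description of groups that overlap. With the replicate block the difference was -0.91 (edgeR adjusted p = 0.79). The order of the male group means, from high to low, was WT ND, labelled-null HFD, labelled-null ND and WT HFD, and all neighbours overlapped.

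Whether the genotype difference of Slc30a10 itself differed between the tables was tested in 1 fit of all 24 libraries. The female minus male effect was -1.46 ± 0.51 on HFD (interval -2.52 to -0.40, edgeR unadjusted p = 0.00892, adjusted p = 1). The HFD effect did not pass the test over 15043 genes. On ND the female minus male effect was -0.83 ± 0.50, which contains the difference that selected the gene and is given as a description. The female minus male effect of HFD, which shares the female ND libraries, was -0.71 ± 0.51 in Cyp2b-null and -0.09 ± 0.50 in WT.

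Over the 12 female libraries, the 5 genes whose log2 level followed that of Slc30a10 most closely among 10319 genes were Chka, Ddit4, Tubb2a, Ubn2 and Sorbs2. Chka encodes choline kinase alpha, Ddit4 a stress-induced inhibitor of mTORC1, Tubb2a a beta-tubulin, Ubn2 a nuclear ubinuclein and Sorbs2 an adaptor of the actin cytoskeleton. Their Pearson r was 0.958, 0.944, 0.930, 0.926 and 0.924 in the order named. Over the 12 male libraries the r of the same genes was 0.61, 0.26, 0.72, -0.51 and 0.50. The points share groups, depth and, in females, the libraries on which Slc30a10 was selected, so the values are a description.

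None of the importers passed the edgeR test in either table, and in females Slc11a2 on HFD was the sole case of groups without overlap. Slc39a14, the hepatocyte importer on chromosome 14 from 70303469 to 70351425 (reverse strand), ranged from 88.4 to 168 CPM over the 12 female libraries and from 153 to 450 CPM over the 12 males. Its Cyp2b-null minus WT difference in females was 0.00 ± 0.21 on HFD, where the interval was -0.46 to 0.45, and 0.32 ± 0.21 on ND. In males the labelled null minus WT difference was -0.30 ± 0.32 on HFD and -0.26 ± 0.32 on ND. Slc39a14 groups overlapped in all 8 comparisons between 2 groups.

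Slc39a8, the broad importer on chromosome 3 from 135825279 to 135888572 (forward strand), ranged from 15.1 to 34.9 CPM in females. Its level followed the 2 sides of the first female principal component, with 15.1 to 21.1 CPM in the 5 libraries and 21.9 to 34.9 CPM in the other 7, sides that were themselves drawn from these counts. In males it ranged from 17.4 to 29.9 CPM in 11 libraries and was 3.21 CPM, from 24 counts, in labelled-null ND library 1. No Slc39a8 comparison parted its groups, and the female Cyp2b-null minus WT difference was -0.23 ± 0.31 on HFD and -0.30 ± 0.32 on ND.

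Slc39a4, best known as the zinc importer of the intestine and lying on chromosome 15 from 76612383 to 76617384 (reverse strand), was detected in all livers. In females it ranged from 33.3 to 59.4 CPM with overlap in every comparison. In WT males its level was 19.7, 9.43 and 7.52 CPM on HFD, against 24.1, 25.6 and 24.7 CPM on ND. All HFD libraries lay below all ND libraries, with a difference of -1.02 ± 0.55 (HFD minus ND, interval -2.23 to 0.18, edgeR adjusted p = 0.829). In labelled-null males it spread from 8.56 to 11.3 CPM on HFD and from 4.15 to 30.5 CPM on ND. The ND spread in the labelled-null males was 7.35-fold between the highest library and the lowest, which was library 1. Without labelled-null ND library 2, the highest, the labelled null minus WT difference on ND was -1.80 (edgeR adjusted p = 0.0479), against -0.71 ± 0.55 with it. That fit called 724 genes in all, against 2 with the library.

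Slc11a2, the importer of iron and manganese also called DMT1, lies on chromosome 15 from 100387898 to 100425072 (reverse strand). In females on HFD its level was 13.7, 13.9 and 12.8 CPM in Cyp2b-null, against 17.8, 22.9 and 20.6 CPM in WT. The groups did not overlap, and the difference was -0.60 ± 0.30 (interval -1.25 to 0.05, edgeR adjusted p = 1). On ND it was 15.2, 20.2 and 11.3 CPM in Cyp2b-null, against 12.5, 27.4 and 26.5 CPM in WT, with overlap. In males on ND it was 17.7, 32.4 and 40.3 CPM in labelled-null livers, against 45.1, 43.0 and 42.0 CPM in WT, a difference of -0.52 ± 0.28 (edgeR adjusted p = 0.322). In WT males it was 39.3, 24.4 and 31.8 CPM on HFD, below all 3 ND libraries (-0.44 ± 0.28, edgeR adjusted p = 0.865).

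Slc30a1, the zinc exporter that Mtf1 induces, was the least abundant of the 9. It lies on chromosome 1 from 191906767 to 191913247 (forward strand) and overlaps the opposite-strand gene 1700034H15Rik, to which reads may have been assigned. Its counts in females were 9, 8 and 6 in Cyp2b-null HFD, 12, 5 and 3 in WT HFD, 14, 9 and 11 in Cyp2b-null ND, and 0, 3 and 9 in WT ND. In males it had 0 to 5 counts in every library. A count of 0 in WT ND library 1 allows up to 1.39 CPM by counting error alone. On ND the female Cyp2b-null libraries had 34 counts in all and the WT libraries 12 counts in all. Each group held a library with 9 counts, which was 4.04 CPM in Cyp2b-null and 3.78 CPM in WT. The groups thus met in counts and parted in CPM by little. Slc30a1 failed the filter on low counts, and the difference within females was not tested.

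**Figure D2:**
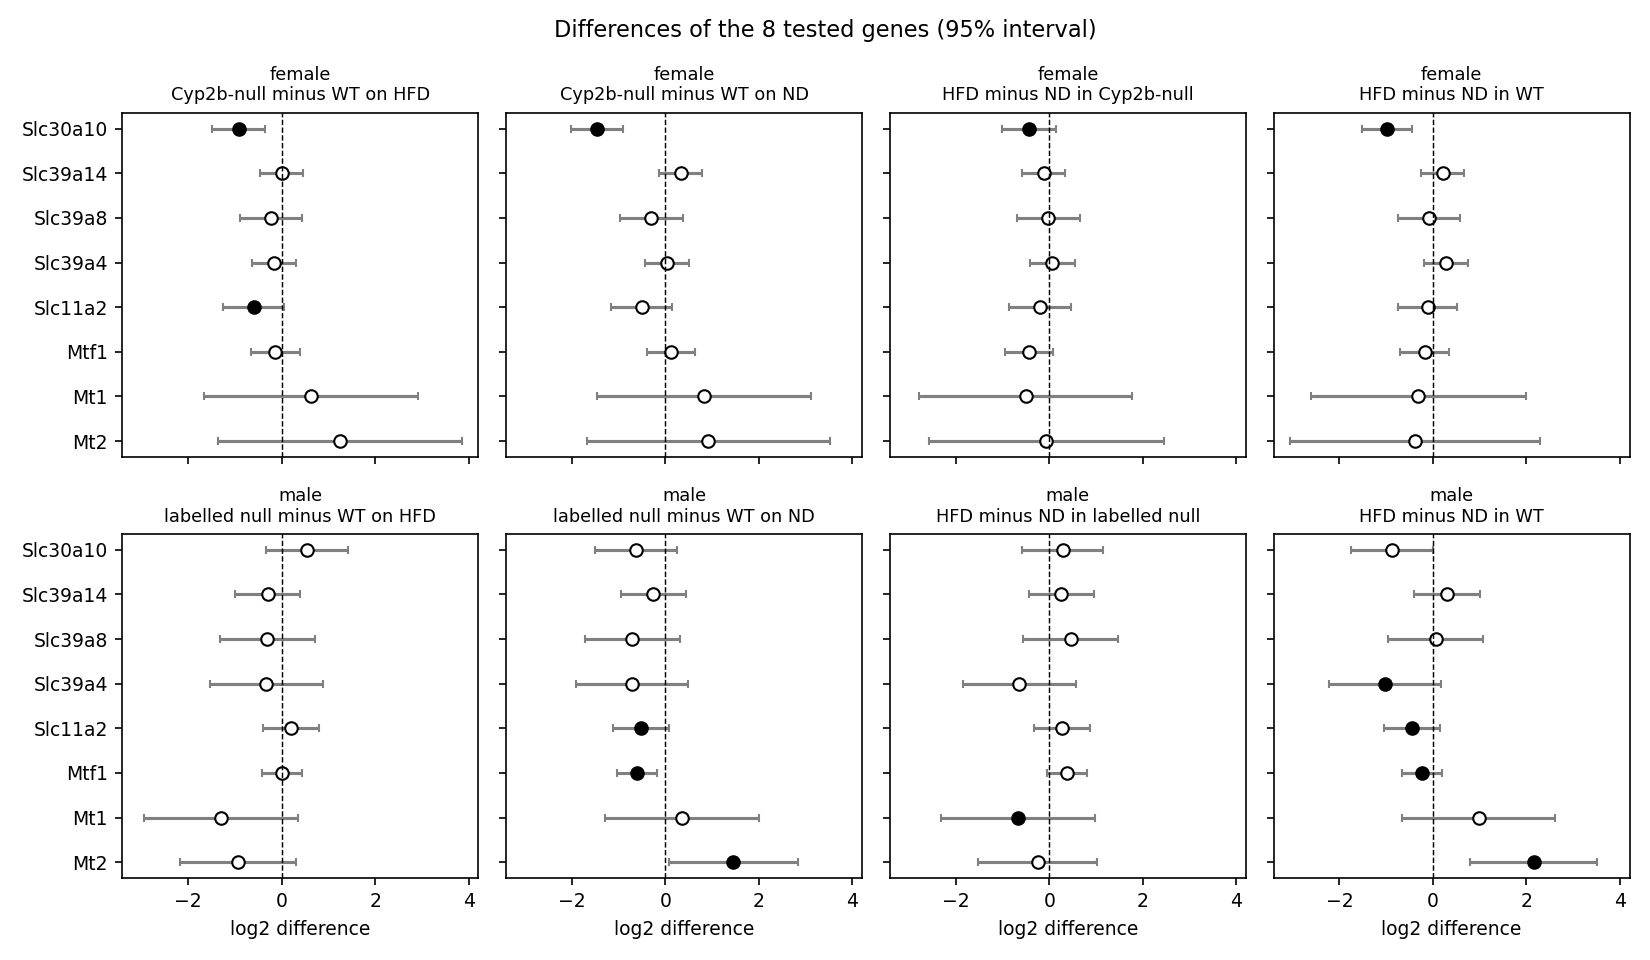
Log2 difference (x axis) of each of the 8 tested genes (y axis) in each comparison between 2 groups, females above and males below; bars are 95% intervals and filled points mark genes whose libraries did not overlap between the groups. Slc30a10 is filled in all 4 female panels and in none of the male ones, and the intervals of Mt1 and Mt2 are the widest in the female panels.

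Mtf1, on chromosome 4 from 124802104 to 124849800 (forward strand), varied less within female groups than most genes, above 23.4% of them in SD of log2 CPM. In females it ranged from 19.6 to 36.4 CPM, overlapped in every comparison and differed by -0.13 ± 0.24 on HFD and 0.12 ± 0.24 on ND (Cyp2b-null minus WT). In males on ND its level was 11.8, 17.0 and 14.4 CPM in labelled-null livers, against 20.7, 21.3 and 24.01 CPM in WT. All labelled-null libraries were lower, with a difference of -0.61 ± 0.20 (interval -1.04 to -0.17, edgeR unadjusted p = 0.0098, adjusted p = 0.213). Without labelled-null ND library 1 it was -0.49 (edgeR adjusted p = 0.19). In WT males Mtf1 was lower on HFD than on ND without overlap, by a difference of -0.23 ± 0.20 (edgeR adjusted p = 0.923). On HFD the male values were 16.7, 19.2 and 20.8 CPM in labelled-null livers, against 20.1, 17.4 and 18.7 CPM in WT, a difference of 0.01 ± 0.20. The male genotype by diet interaction of Mtf1 was 0.62 ± 0.28 (edgeR unadjusted p = 0.0478, adjusted p = 0.891).

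Mt1 and Mt2 sit beside each other on the forward strand of chromosome 8, Mt2 from 94172664 to 94173568 and Mt1 from 94179082 to 94180327, with 5.51 kb between them. Their levels differed far more between libraries of 1 group than between groups in females. Mt1 was 224, 57.4 and 262 CPM in Cyp2b-null HFD, 283, 36.2 and 30.9 CPM in WT HFD, 269, 382 and 120 CPM in Cyp2b-null ND, and 301, 51.9 and 82.3 CPM in WT ND. Mt2 was 72.8, 8.79 and 77.3 CPM in Cyp2b-null HFD, 49.8, 13.3 and 3.71 CPM in WT HFD, 33.4, 117 and 17.0 CPM in Cyp2b-null ND, and 63.9, 7.99 and 16.4 CPM in WT ND. Each female group held libraries at least 3.17-fold apart in Mt1 and at least 6.90-fold apart in Mt2, and in WT HFD they were 9.14-fold and 13.4-fold apart.

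Within female groups the SD of log2 CPM was 1.32 for Mt1 and 1.58 for Mt2, against a median of 0.376 over 11830 genes. That placed Mt1 above 99.2% and Mt2 above 99.7% of the genes, while Slc30a10, at 0.308, was above 34.2%. In males the SD was 1.07 for Mt1 and 0.698 for Mt2, above 97.0% and 85.2% of 12103 genes. The genotype differences of females were accordingly wide, at 0.64 ± 1.01 on HFD and 0.82 ± 1.01 on ND for Mt1, and at 1.25 ± 1.16 on HFD and 0.92 ± 1.15 on ND for Mt2 (Cyp2b-null minus WT). Intervals as wide as -1.65 to 2.93 for Mt1 on HFD mean that differences of several fold in either direction could have been missed.

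The metallothionein genes moved together across the female libraries. Over the 12 libraries the Pearson r of their log2 levels was 0.937 (permutation p = 5e-05, adjusted p = 0.0028 over 56 relations among the 8 genes and 2 tables) and Spearman's rho was 0.874 (permutation p = 0.00057, adjusted p = 0.0319). Without the 2 libraries farthest from the median Mt1 level r was 0.947, and after each group mean was removed it was 0.936. In males r was 0.559 (permutation p = 0.0604, adjusted p = 0.207), rho was 0.497 and r fell to 0.0828 without the 2 farthest libraries. Among the other relations Slc11a2 and Mt2 in males passed by rank, with rho of -0.825 (permutation p = 0.00148, adjusted p = 0.0414), but not by Pearson's r of -0.49 (adjusted p = 0.252), which was -0.154 once group means were removed and -0.799 without the 2 farthest libraries. Slc30a10 and Mt1 in males had r of -0.779 (permutation p = 0.00281, adjusted p = 0.0787) and rho of -0.727 (adjusted p = 0.131), with r of -0.755 within groups and -0.479 without the 2 farthest libraries. No other relation passed. Mt1 and Mt2 are alike in sequence, and reads that match both could be split between them or dropped at counting.

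**Figure D3:**
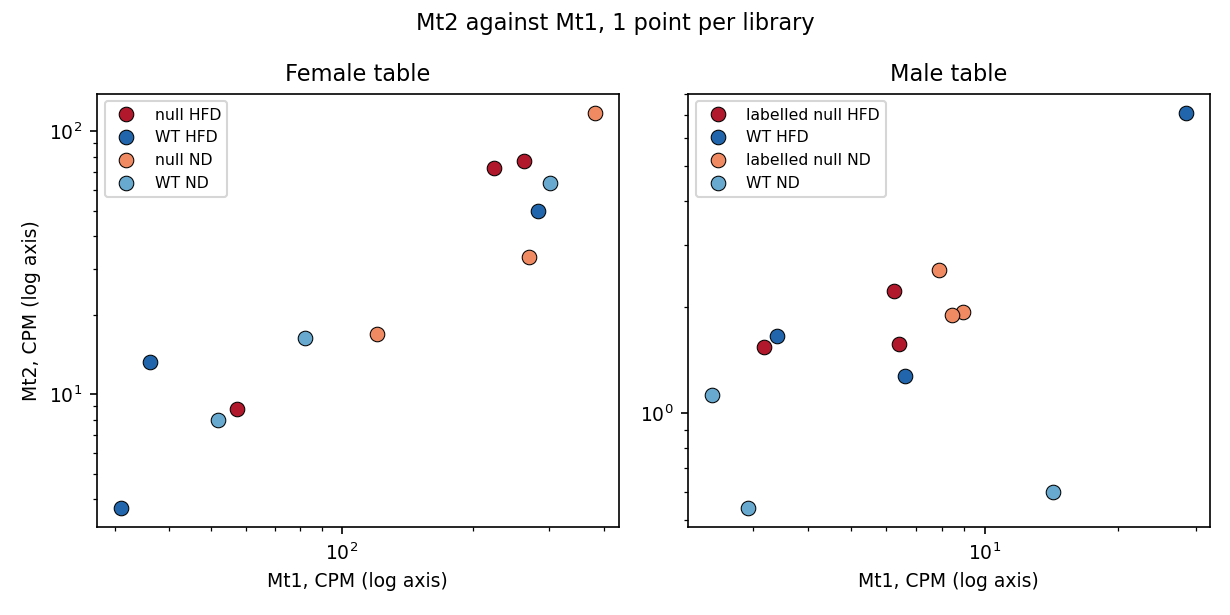
Mt2 level against Mt1 level in CPM, both on log axes, 1 point per library coloured by group, females left and males right. Female points lie along a rising line from 30.9 to 382 CPM of Mt1 with groups intermixed, and male points scatter between 2.42 and 28.5 CPM.

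High Mt1 occurred in female libraries of both genotypes, both diets and both sides of the principal component. Library 1 had 224 CPM in Cyp2b-null HFD, 283 in WT HFD, 269 in Cyp2b-null ND and 301 in WT ND. In WT the other libraries had 30.9 to 82.3 CPM. In Cyp2b-null library 1 was not the highest, as the others had 57.4 and 262 CPM on HFD and 382 and 120 CPM on ND. Mt1 ranged from 57.4 to 382 CPM in the 5 libraries of the first side and from 30.9 to 269 CPM in the other 7. Glucocorticoid target genes summed to 1654 to 3736 CPM in Cyp2b-null HFD, 1294 to 4984 CPM in WT HFD, 2848 to 4521 CPM in Cyp2b-null ND and 2077 to 5540 CPM in WT ND. Acute phase genes summed to between 11438 and 19289 CPM over the 12 female libraries. Both lists have known links to metallothionein expression, and their part in the spread was not tested.

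In males Mt1 and Mt2 were low, and Mt2 parted the genotypes on ND. Mt1 was 6.42, 6.24 and 3.18 CPM in labelled-null HFD, 6.62, 3.40 and 28.5 CPM in WT HFD, 7.89, 8.92 and 8.43 CPM in labelled-null ND, and 2.42, 2.92 and 14.3 CPM in WT ND. Mt2 was 1.58, 2.23 and 1.54 CPM in labelled-null HFD, 1.28, 1.65 and 7.06 CPM in WT HFD, 2.54, 1.94 and 1.90 CPM in labelled-null ND, and 1.12, 0.541 and 0.598 CPM in WT ND. Every labelled-null ND library exceeded every WT ND library in Mt2, with 19 to 36 counts against 5 to 13 counts.

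The male Mt2 difference on ND was 1.45 ± 0.63 (labelled null minus WT, interval 0.08 to 2.83, edgeR unadjusted p = 0.0397, adjusted p = 0.252), and 1.32 without labelled-null ND library 1. In WT males Mt2 was 2.15 ± 0.62 higher on HFD than on ND on the log2 scale (edgeR unadjusted p = 0.00464, adjusted p = 0.506), without overlap. That value rested in part on WT HFD library 3, without which it was 0.92 (edgeR adjusted p = 1). The male interaction of Mt2 was -2.39 ± 0.85 (edgeR unadjusted p = 0.0156, adjusted p = 0.891), and -1.16 without the same library. Mt1 of labelled-null males was lower on HFD than on ND in every library, by a difference of -0.67 ± 0.76 (edgeR adjusted p = 0.697).

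**Figure D4:**
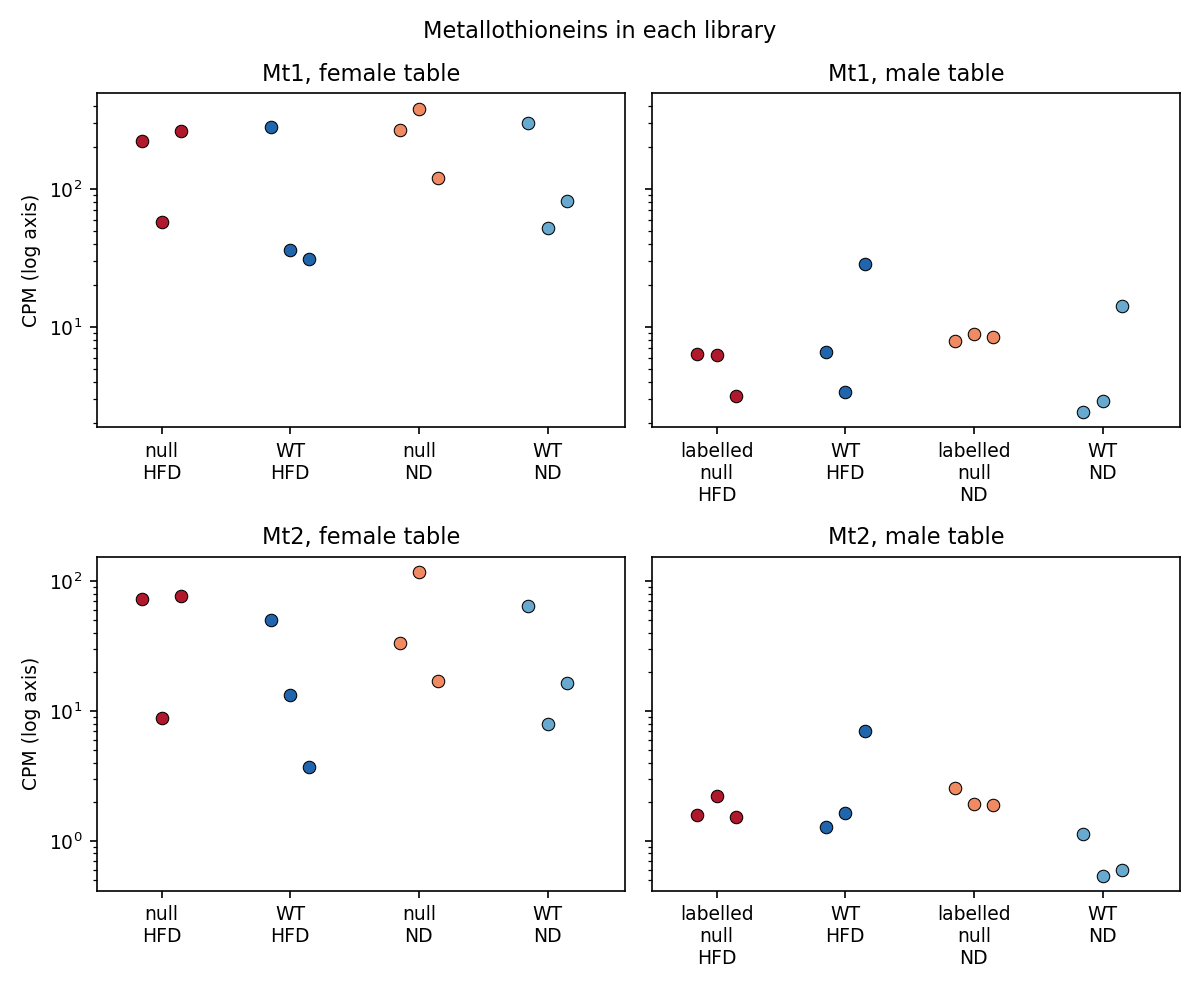
Mt1 (upper panels) and Mt2 (lower panels) in CPM on a log axis in each library, by genotype and diet, females left and males right. In each female group the libraries are several-fold apart, and in males Mt2 is 1.90 to 2.54 CPM in labelled-null ND against 0.541 to 1.12 CPM in WT ND.

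Per kb of exon, the order of the genes differed between the tables. In females the median over 12 libraries was 138 CPM per kb for Mt1, 42.9 for Mt2, 14.7 for Slc39a4, 12.1 for Slc39a14 and 3.78 for Slc30a10. Slc39a8, Mtf1 and Slc11a2 followed at 3.26, 2.84 and 2.59 CPM per kb, and Slc30a1 at 0.689. In males Slc39a14 led with 29.0 CPM per kb, ahead of Slc11a2 at 5.84, Slc30a10 at 5.82 and Mt1 at 5.23. Slc39a4, Slc39a8, Mt2 and Mtf1 had 3.43, 2.99, 2.75 and 2.13 CPM per kb and Slc30a1 had 0.0166. Neighbours in each order overlapped in range, except that Slc30a1 lay apart at the low end in both tables and Slc39a14 at the high end in males. Exon length joined all annotated transcripts of a gene. For Mt1 it was 1246 bases, the whole span of the gene, so its level per kb and its male rank may be too low. Mt1 had 30.9 to 382 CPM in females and 2.42 to 28.5 CPM in males, a gap in which sex and kit cannot be told apart.

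**Figure D5:**
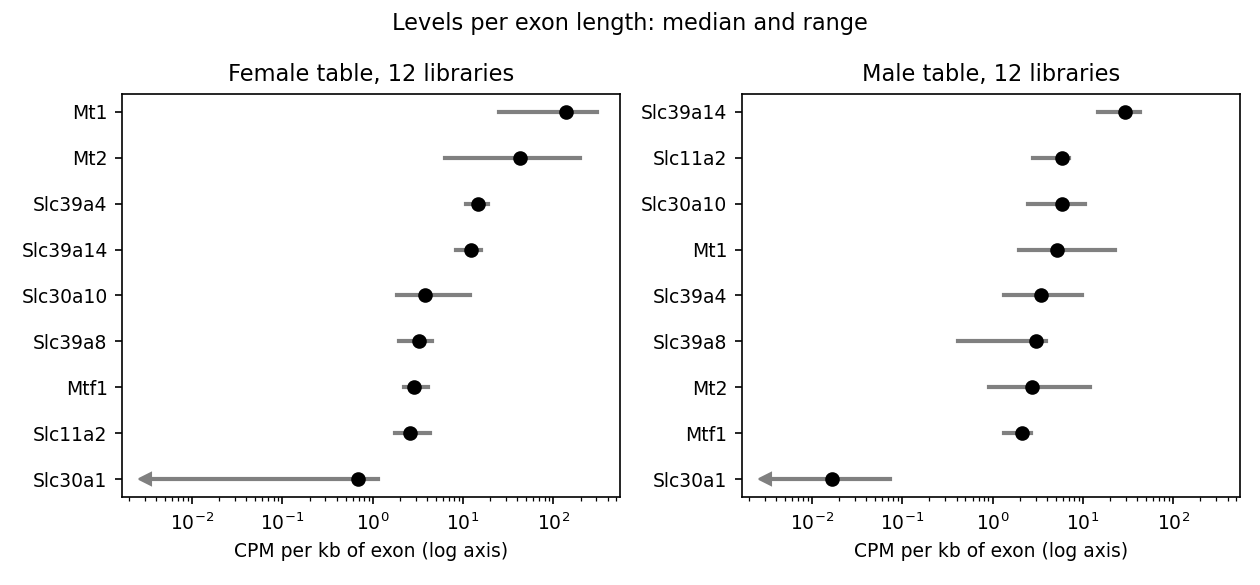
Level of each of the 9 genes in CPM per kb of exon (log x axis): points are medians over the 12 libraries of a table, lines the range, and an arrow marks a range that reaches 0. Mt1 has the highest median in females at 138 CPM per kb and Slc39a14 in males at 29.0 CPM per kb.

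Read over the 8 tested genes, calls were rare in every female comparison. On HFD 0 of the 8 genes were called between Cyp2b-null and WT by edgeR, against 0.0169% of all genes tested. Slc30a10 alone of the 8 had an edgeR unadjusted p under 0.05, against 289 of all genes. The libraries of 2 of the 8, Slc30a10 and Slc11a2, did not overlap on HFD, against 6.97% of all genes. On ND 1 of the 8 was called, Slc30a10 itself, against 0.127% of all genes, and 1 of the 8 did not overlap, against 11.3%; that comparison selected the gene and nothing is read from these counts. The call was lost under a replicate block (adjusted p = 0.0647) and without any 1 of the 6 libraries (adjusted p = 0.0799 to 0.214). Between the diets, 0 of the 8 were called in Cyp2b-null, against 0% of all genes, and 1 did not overlap, against 11.2%; none of the 8 and 568 of all genes had an unadjusted p under 0.05. In WT 0 were called, against 0.0169%, and 1 did not overlap, against 7.86%. There Slc30a10 alone of the 8 had an edgeR unadjusted p under 0.05, against 412 of all genes. The interaction gave 0 calls among the 8 and 0% among all genes, of which 342 had an unadjusted p under 0.05. DESeq2 called none of the 8 in these comparisons other than Slc30a10 on ND, and over all genes it called 2 on HFD, 70 on ND, 3 and 23 between the diets in Cyp2b-null and WT, and 10 in the interaction.

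In males edgeR called 0 of the 8 genes in every comparison. On ND the call rate over all genes was 0.0134%. Mtf1 and Mt2 were the members with an edgeR unadjusted p under 0.05, against 2759 of all 14873 genes tested. The libraries of 3 of the 8 did not overlap between labelled null and WT on ND, against 22.8% of all genes. On HFD 0 of the 8 did not overlap, against 8.27%, and calls were 0% of all genes with 315 at an unadjusted p under 0.05. Between the diets 1 of the 8 did not overlap in the labelled-null group, against 12.1% of all genes, and 4 in WT, against 23%. Calls were 0% of all genes in both diet comparisons and in the interaction, where 1657, 966 and 691 genes had an unadjusted p under 0.05 in labelled null, in WT and in the interaction. Among the 8 these were none in labelled null, Slc30a10 and Mt2 in WT, and Mtf1 and Mt2 in the interaction. DESeq2 called none of the 8 in any male comparison, and over all genes it called 17 on HFD, 369 on ND, 110 and 70 between the diets in labelled null and WT, and 19 in the interaction. With 8 genes these counts do not set the members apart from the other genes, and no test of them was made.

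For the female minus male effects in the joint fit, where all 9 genes were tested, edgeR called 0 of the 9. Over all genes the call rate was 0.0133% for the genotype effect on HFD and 0.0332% for that on ND. It was 0% for the HFD effect in Cyp2b-null, where 699 genes had an unadjusted p under 0.05, and 0.00665% for that in WT. Mtf1 on ND had a female minus male effect of 0.73 ± 0.31 (edgeR unadjusted p = 0.0265, adjusted p = 0.376). The effect of HFD on Mtf1 in Cyp2b-null differed by -0.82 ± 0.31 and that on Slc39a4 in WT by 1.31 ± 0.61 (edgeR adjusted p = 0.965 and 1).

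None of the other genes of metal handling passed the test in any comparison within a table. Of 8 further zinc exporters of the ZnT family 4 were tested in females and 5 in males, and of 11 further importers of the ZIP family 7 and 9. Of 8 further Mtf1 target genes found, 6 were tested in each sex, of 5 manganese-dependent enzymes 4 in each, and all 21 genes of iron, copper and manganese handling in each. On HFD in females the medians of these lists, Cyp2b-null minus WT, were -0.15 for ZnT, -0.23 for ZIP, -0.19 for Mtf1 targets, 0.19 for the enzymes and 0.01 for iron, copper and manganese handling, with a median of -0.01 over all genes. On ND in males the corresponding medians were -0.16, -0.50, -0.21, -0.43 and -0.41, with 0.06 over all genes. Labelled-null ND library 1, which stood apart, had the lowest summed level of each of these lists on ND. Iron, copper and manganese handling summed to 7238 CPM in it, 14790 and 11224 CPM in the other labelled-null libraries and 18030 to 20031 CPM in WT. The manganese-dependent enzymes summed to 1201 CPM in it, 2844 and 2341 CPM in the other labelled-null libraries and 2586 to 2904 CPM in WT.

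The member of these lists with the smallest p differed between comparisons. Ndrg1, a stress-responsive gene listed as an Mtf1 target, had it in the genotype comparisons of females on HFD (-0.91 ± 0.30, edgeR adjusted p = 1) and of males on HFD (-0.75 ± 0.32, adjusted p = 1) and ND (-1.12 ± 0.32, adjusted p = 0.195). In Cyp2b-null females Ndrg1 also differed by -1.23 ± 0.30 between HFD and ND (edgeR unadjusted p = 0.000925, adjusted p = 0.963). Gclc, a subunit of the enzyme that makes the glutathione precursor, had it in females on ND (-0.73 ± 0.26, edgeR adjusted p = 0.532). Sepw1, a selenoprotein, had it between HFD and ND in WT males (-0.70 ± 0.21, edgeR adjusted p = 0.516). Slc30a3, a zinc transporter best known from synaptic vesicles, had it between the diets in labelled-null males (-2.12 ± 0.58, edgeR adjusted p = 0.411).

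In WT females the smallest p between the diets was that of Slc11a1, the metal transporter of macrophage phagosomes, at 1.46 ± 0.42 (HFD minus ND, edgeR unadjusted p = 0.00339, adjusted p = 0.935). Kupffer cell markers, those of the resident liver macrophages, were higher on HFD for 10 of 10 genes in Cyp2b-null and 10 of 10 in WT females, with median log2 differences of 0.78 and 0.66. Over all genes 51.3% and 49.7% were higher. Of the 10 markers 0 were called in either comparison, against 0% and 0.0169% of all genes. In Cyp2b-null 5 and in WT 1 had an edgeR unadjusted p under 0.05, against 568 and 412 of 11830 genes. Their summed level was 422 to 728 CPM in Cyp2b-null HFD against 209 to 381 CPM in Cyp2b-null ND, and 353 to 641 CPM in WT HFD against 208 to 417 CPM in WT ND. Of 10 cholangiocyte markers, those of bile duct cells, 3 were tested in females. All 3 were lower in Cyp2b-null on ND, where 47.4% of all genes were higher, with Prom1 called (-3.33 ± 0.46, edgeR adjusted p = 0.00679). Their median log2 difference was -0.21 on HFD and -0.17 on ND between Cyp2b-null and WT, and -0.54 and -0.48 between HFD and ND in Cyp2b-null and WT. In the genotype comparison on HFD and in both diet comparisons, 1 of the 3 was higher and 2 were lower. Over all genes 49.1% to 51.3% were higher there. The 10 markers together summed to 30.5 to 48.1 CPM in Cyp2b-null HFD, 40.4 to 65.5 in WT HFD, 36.0 to 70.8 in Cyp2b-null ND and 55.4 to 90.8 in WT ND, and 2 to 5 of them had 0 counts in each library. Slc30a10 was lower in the same comparisons, and the part of cell composition in these values was not tested. Hepatocyte markers summed to 89693 to 91366 CPM in WT HFD females, against 95566 to 106791 CPM in WT ND females.

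On ND the male genotype comparison went with other shifts. Hepatocyte markers summed to 44843 to 96861 CPM in labelled-null livers, against 120295 to 154932 CPM in WT. Acute phase genes summed to 5974 to 17099 CPM in labelled-null livers, against 19419 to 21606 CPM in WT. The lowest value of both lists was that of labelled-null library 1. Both lists parted the groups as Mtf1, Slc11a2 and Mt2 did, and their part in these differences was not tested. In females on HFD hepatocyte markers summed to 74590 to 102414 CPM in Cyp2b-null, against 89693 to 91366 CPM in WT. The part of this in the Slc30a10 difference was not tested.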

How the data were processed

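The authors deposited 2 tables of raw counts, 1 for each sex, with rows named by gene symbol. Tools named in the submitters' processing notes are FastQC, Trimmomatic, GSNAP, Subread and edgeR, with build GRCm38.p5; the sources used here give neither versions nor the strand setting. Per the labels' protocols, female RNA was extracted with Trizol and prepared with NEB Next Ultra RNA, and male RNA with RNeasy Plus Universal and TruSeq Total RNA. The members and gene lists were chosen with earlier results of these data known.

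For this report counts of repeated symbols were summed (1806 in males, among them Slc30a1 with 2 rows). The 2 tables had separate edgeR 4.0.16 fits (in R 4.3.3) with 1 term per group, TMM scaling, a filter on low counts and robust quasi-likelihood tests. The Benjamini-Hochberg adjustment ran over 11830 genes in females and 14873 in males, with calls below 0.05. A joint fit of 24 libraries tested female minus male effects. The fits were tested on simulated data for the HFD genotype comparison, with the same spread for every gene. True log2 changes of 1 were called in 16% of 100 genes in females and 8% in males, and changes of 2 in 85% in each. A difference near 1 could thus often be missed. CPM are counts over the library total multiplied by its TMM factor, and log2 CPM for correlations used TMM and a prior count of 2. Floors (3 counts) cover counting error only.

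Whether libraries of a group are separate mice is not stated, so the p-values rest on a spread between libraries that may be technical. All libraries within groups differed by more than sampling noise. Replicate numbers are in the titles. Between WT HFD and WT ND, libraries with the same number shared deviations from the group means (r of 0.564, 0.139 and 0.279 in females, 0.114, 0.127 and 0.110 in males). There the numbers were taken to pair libraries for description, while the reported differences come from fits without pairing. Between the diets r was 0.356, 0.312 and -0.129 in Cyp2b-null females and 0.198, -0.0775 and 0.167 in labelled-null males, which were not set by number. The labelled-null values of 0.198 and 0.167 exceeded every male WT value, so r does not set the male WT groups apart. The replicate block, used as an alternative, covered all libraries of a sex, those of the null groups among them. The pairing is thus an assumption drawn from these counts. Alternatives were another scaling (RLE), no filter, DESeq2 1.42.0, a fit of only the 2 groups compared, a replicate block, the first row of repeated symbols, each library left out and, added after seeing the data, a term for the sides of the first female principal component.

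Most genes were named by rule: the 9 members, the deleted genes, the 5 genes most like Slc30a10 and, from each comparison between 2 groups, the metal-handling gene with the smallest p. Prom1 was named outside this rule because it was called in females on ND, the comparison that selected Slc30a10. Albumin, as an example, and genes that overlap members were also named outside it.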

Additional observations from a re-analysis of the deposited data

How the results depend on the processing

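Over 145 alternatives of the counts of members called, 135 were within 1.5 times the reported count. The reported count was 0 in every comparison except females on ND (Cyp2b-null minus WT). Most of the 135 were therefore 0 against 0, and their number says little about robustness. The count in females on ND (Cyp2b-null minus WT), the comparison that selected Slc30a10, was 1 as reported, 0 under the replicate block and 0 to 0 over the fits that left out 1 library. The Slc30a10 difference then ran from -1.57 to -1.28, with adjusted p between 0.0799 and 0.214, and with the replicate block it was -1.45 (adjusted p = 0.0647). The count stayed at 1 under RLE scaling, no filter, the first row of repeated symbols, the compared groups alone, DESeq2 and the term for the 2 sides. All these settings reuse the libraries that selected the gene, so the count is given as a description and not as support. The block changed no other call. In males on ND the count ran from 0 to 1 when 1 library was left out, and the fit with 1 called 724 genes in all, against 2 as reported. Without a filter on low counts, the female minus male effect of genotype on HFD had 2 members called (Mt1 at 1.97 and Mt2 at 2.25) and that of HFD in WT had 1 (Mt2 at -2.54), in fits that called 12 and 33 genes in all. The cause was not tested. Of 205 alternatives of 15 differences of single members, 204 kept their sign. The exception was Slc30a10 between HFD and ND in labelled-null males, which ran from -0.04 to 0.68 when 1 library was left out and was -0.0387 without labelled-null HFD library 3. Low counts limit Slc30a1 (0 to 14 in females, 0 to 5 in males) and male Mt2 (from 5), and female Slc30a10 rested on 29 to 151 counts.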
